A study of Mus musculus with 6 samples.

Results

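The genes described here encode nuclear-encoded subunits of the mitochondrial respiratory chain and the ATP synthase, followed in flat cultures of epithelium from 3 regions of the mouse stomach. Subunits with other symbols than those below, such as Cyc1 of complex III, are not among them. They were taken by symbol: Ndufa, Ndufb, Ndufc, Ndufs and Ndufv (without the Ndufaf assembly factors), Sdha to Sdhd, Uqcr, Cox4i, Cox5, Cox6, Cox7, Cox8 and Atp5. Of 15431 genes in the deposited table, 88 carried such a symbol. The 82 of them above 0 in at least 1 library are the members, and 6 were at 0 in all libraries (Atp5k-ps2, Ndufab1-ps, Sdhaf3, Sdhaf4, Uqcrh-ps1 and Uqcrh-ps2). Of the 82, 78 are placed in the complexes: 36 in complex I, 4 in complex II, 8 in complex III, 15 in complex IV with Ndufa4 and its paralog, and 15 in the ATP synthase, also called complex V. The remaining 4 (Sdhaf1, Sdhaf2, Atp5s and Atp5sl) share a symbol prefix but are not subunits.

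The cultures were of forestomach, corpus, and antrum with pylorus (called antrum here), all of wild type genotype and labelled p2, with 2 libraries per region and 6 in all. The forestomach cultures followed another, published growth protocol than those of corpus and antrum, so region and growth conditions cannot be told apart in any comparison with forestomach. Total RNA was depleted of ribosomal RNA and sequenced, and levels are in CPM (a gene's reads scaled to the library's total) as deposited by the authors. The labels give the libraries of a region separate IDs, and the same pair of IDs recurs in all 3 regions. What an ID stands for (an animal, a line or a dish) is not said and the table's columns do not carry it, so the spread behind the p-values may be technical. Corpus and antrum together are called glandular.

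Complex I takes electrons from NADH and complex II takes them from succinate. Both pass them through ubiquinone to complex III, from there by cytochrome c to complex IV, and so to oxygen. Complexes I, III and IV pump protons across the inner membrane, and the ATP synthase makes ATP as the protons flow back. Complex II alone is encoded wholly in the nucleus, while the other complexes also hold subunits made from mitochondrial DNA. In the stomach the chain is best known from the acid-secreting parietal cell of the corpus gland, which is packed with mitochondria.

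By estimate from the steps between low values, libraries held 36.9 to 47.7 M reads, with 14 to 18.2 M of them on listed genes. A count of 3 reads equals 0.063 to 0.081 CPM. The cultures differed in the markers of their epithelia: the 7 squamous markers summed to 14092 and 12804 CPM in forestomach and to 1.89 to 4.37 in glandular libraries, and the 12 columnar markers to 52 and 53.9 against 4720 to 8325. The 5 genes listed as parietal markers summed to 0 and 0.2 CPM in forestomach and 235 to 384 in glandular libraries. Nearly all of the glandular sum came from Slc9a4 (181.59 to 257.57 CPM) and Gif (11.13 to 201.46). The proton pump genes that define the parietal cell were near 0, Atp4a at 0.43 to 1.03 CPM and Atp4b at 0 to 0.06 in glandular libraries. So was Kcne2 (0 to 0.02), and the sum is not read as a measure of parietal cells. All 8 fibroblast markers were higher in every glandular library (36.8 to 79.4 CPM in sum against 0.12 and 0.29). The 4 proliferation markers summed to 910 and 535 in forestomach, 308 and 340 in corpus and 371 and 629 in antrum. The part of these differences in the results was not tested. In such bulk libraries, fewer cells of a type and less RNA per cell cannot be told apart.

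Summed over each complex as deposited, respiratory chain genes stood lower in glandular than in forestomach cultures in complexes I, III, IV and V and overlapped in complex II. As a share of the listed CPM, complex IV overlapped too (-7.35%) and complex II was higher in glandular libraries (12%). All members together summed to 6199 and 5792 CPM in forestomach, 4681 and 3917 in corpus, and 5090 and 4483 in antrum. Both forestomach libraries stood above all 4 glandular ones. The glandular mean was 4543 ± 488 CPM (SD, n = 4) against 5995 ± 288 (SD, n = 2), a difference of -24.2%. As a share of the listed CPM the members made up 1.28% and 1.47% in forestomach and 1.18% to 1.23% in glandular libraries, a difference of -12.8%, again without overlap.

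Of the 80 members tested (at least 1 CPM in at least 2 libraries), 23 fell in glandular against forestomach (28.7%) and 0 rose, by limma with Benjamini-Hochberg adjustment over 11891 genes at an adjusted p under 0.05. Over all genes tested 26.7% fell and 21.1% rose, so the share of members that fell was close to the background, while the count of 0 that rose was under it. With libraries rescaled by median ratios 14 members fell and 2 rose (Atp5sl and Ndufa6), and 24% of all genes fell and 29.2% rose. Leaving out corpus 2 or antrum 2 left 4 members that fell (5%), against 18.5% and 20.2% of all genes. Leaving out corpus 1 left 12 and leaving out antrum 1 left 15. Over the 80 members the median log2 difference was -0.43, from -1.71 to 0.56, with 72 below 0 and 8 above. The median of all genes was -0.13, and it moved to 0.05 under both rescalings tried, so changes are best read relative to it: the members' median lay 0.29 below it as deposited (-0.29) and -0.28 from it after either rescaling. Without forestomach 2 this distance was -0.11, and without forestomach 1 it was -0.44. Log2 values are of CPM + 1 and understate the change of low genes.

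Libraries of the groups did not overlap for 55 members that were lower in all glandular libraries (68.8%) and 3 that were higher (Atp5sl, Sdhd and Uqcrb), against 34.3% and 25% of all genes. As deposited, the log2 difference was below 0 for 34 of 36 genes of complex I, 2 of 4 of complex II, 7 of 8 of complex III, 11 of 13 of complex IV and 15 of 15 of the ATP synthase, as the plot of fold changes by gene shows. The median of all genes was below 0 as well (-0.13), and their share below 0 was not counted. After rescaling by median ratios the medians were -0.34 in complex I, 0.14 in II, 0.02 in III, -0.13 in IV and -0.09 in V.

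**Figure D1:**
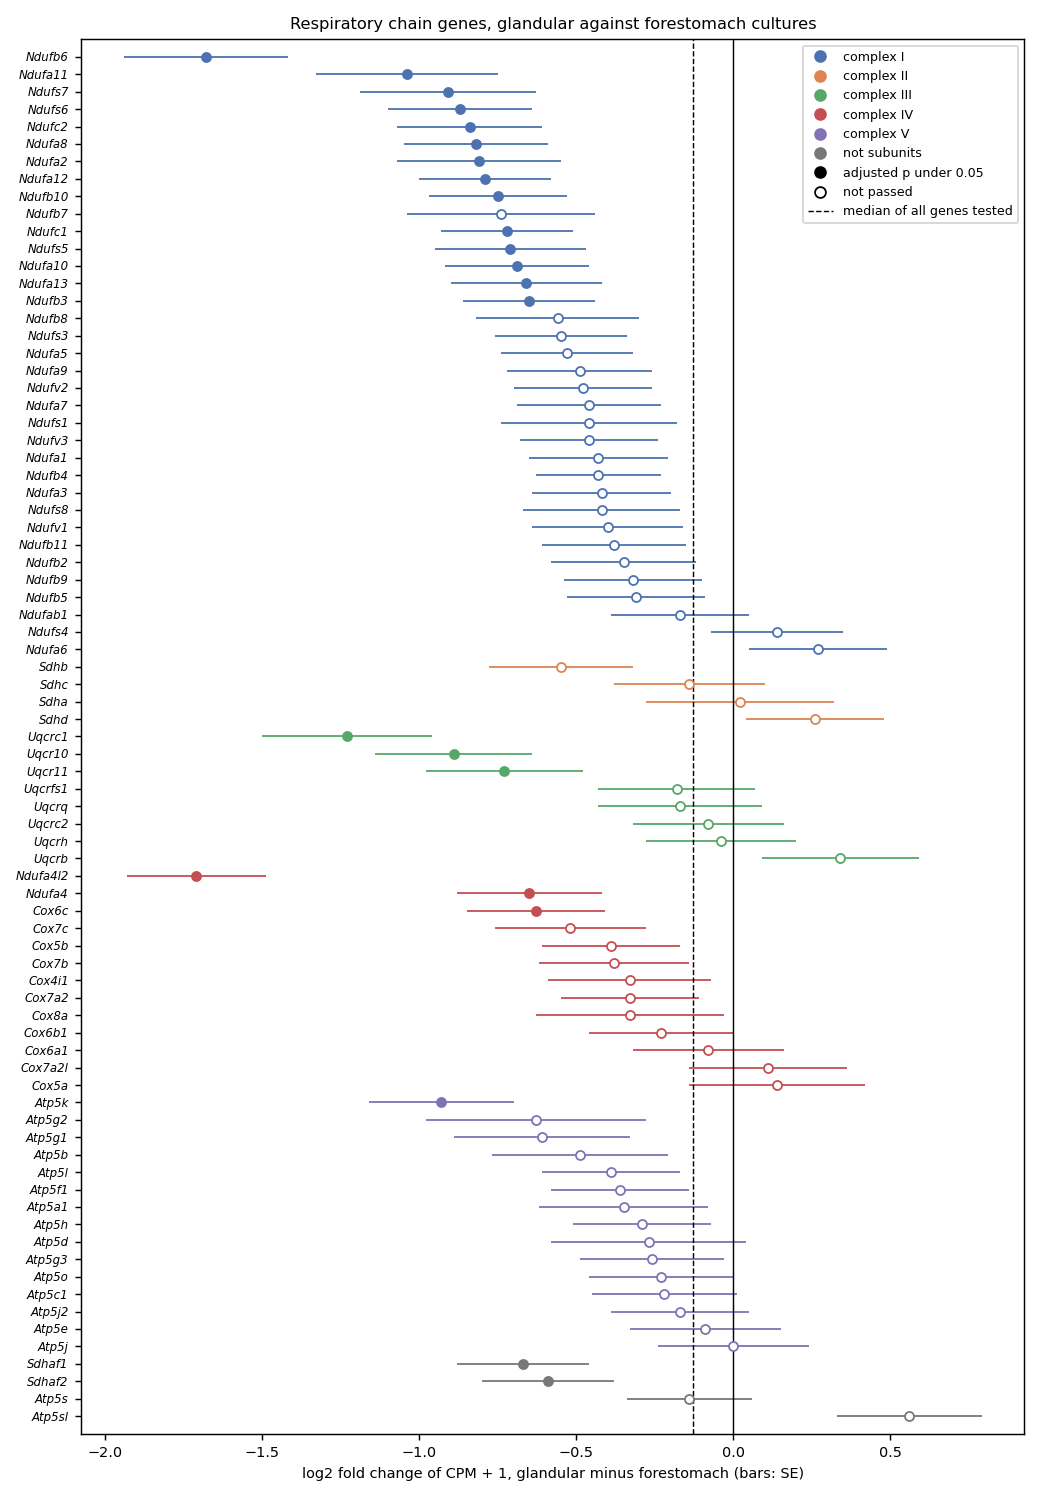
Log2 fold change of CPM + 1 in glandular (4 libraries) against forestomach (2 libraries) for 79 of the 80 members tested, by complex, with the SE as bars; filled points passed an adjusted p under 0.05 and the dashed line is the median of all genes (-0.13). The 23 filled points all lie below 0 and 14 of them belong to complex I; with libraries rescaled by median ratios, 14 members fell and 2 rose.

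Each glandular region was also set against forestomach on its own. Corpus against forestomach gave 19 members that fell (23.8%, against 26.5% of all genes) and 0 that rose (17.1% of all genes), with a median of -0.47. Antrum against forestomach, which shares the forestomach libraries, gave 8 that fell (10%, against 18.7%) and 0 that rose (20.2%), with a median of -0.38. Without corpus 2 the corpus count of falls was 2, and without antrum 2 the antrum count was 2. With libraries rescaled to the sum of listed genes, 2 members rose in corpus and 1 in antrum, while 12 fell in corpus and 11 in antrum. Between antrum and corpus 0 members passed in either direction by limma, and 0 had an unadjusted p under 0.05, against 7.93% of all genes. The smallest adjusted p was 0.771 by limma. Corpus and antrum shared a difference between library 1 and 2, described below. This fit does not remove it, so the SEs between antrum and corpus may be too large. All genes tested gave 0.555% higher and 0.202% lower in antrum. The members' median was 0.09 and that of all genes 0.21. Antrum libraries lay above both corpus libraries for 25 members and below for 1 (Ndufa6), against 45.4% and 5.32% of all genes.

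Promoter sequences were read for 67 of the 82 members from RefSeq (GRCm38.p6, 250 bases before to 50 after the start of each gene). The site of NRF1, a factor known for binding respiratory chain promoters, was searched as GCGCA, any 1 base and GCGC, on both strands. It was in 17 of the 67 (25.4%), in 5.19% of 27025 genes and in 12% of the 8306 tested genes that have a promoter in the table. It occurred in 6 of 20 members that fell (30%) and 11 of 45 that did not pass (24.4%). The other motifs searched, with overlaps between motifs kept, were CCGGAAG of GABPA in 26.9% of members and 20.5% of tested genes, AAGATGGCG of YY1 in 10.4% and 3.74%, AAGGTCA of the estrogen-related receptors in 11.9% and 3.67%, and GGGCGG of SP1 in 41.8% and 70.7%. A match is a description of these letters and not a binding site.
The 6 sites in members that fell are shown first and 4 in members that did not pass after them, chosen after their values were seen, to let the sites be compared. Of each gene 1 match is given, with 30 bases of GRCm38.p6 in the direction of the gene, with the motif in capitals.
Ndufa8: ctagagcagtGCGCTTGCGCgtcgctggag
Ndufs5: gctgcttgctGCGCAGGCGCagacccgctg
Ndufs6: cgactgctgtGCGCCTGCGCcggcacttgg
Ndufa11: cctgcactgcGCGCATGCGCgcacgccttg
Uqcrc1: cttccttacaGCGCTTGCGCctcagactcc
Atp5k: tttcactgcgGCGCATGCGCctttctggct
Sdha: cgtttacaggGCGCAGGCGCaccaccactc
Sdhd: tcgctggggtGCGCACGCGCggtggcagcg
Cox6a1: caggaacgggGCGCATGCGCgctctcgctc
Atp5c1: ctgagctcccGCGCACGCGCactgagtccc
In the same order they lie at chr2:36049349-36049378 (minus strand), chr4:123718265-123718294 (minus), chr13:73328479-73328508 (minus), chr17:56717692-56717721 (plus), chr9:108936643-108936672 (plus), chr5:108434430-108434459 (minus), chr13:74350319-74350348 (minus), chr9:50603909-50603938 (minus), chr5:115349101-115349130 (minus) and chr2:10080430-10080459 (minus). The motif starts before the annotated start of the gene in each of them but Uqcrc1, where it starts at base 6 after it. The same letters stood before genes that fell and genes that did not.

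Complex I had the most members that fell, 14 of 36 (38.9%, against 26.7% of all genes), with a median log2 difference of -0.54. Its summed level was 1503 and 1466 CPM in forestomach, 1034 and 886 in corpus and 1123 and 978 in antrum, a difference of -32.3%. All 4 glandular libraries lay below both forestomach ones, in the sum and for 31 of the 36 genes (86.1%, against 34.3% of all genes). The count was 10 of 36 with rescaling by median ratios, where 24% of all genes fell, so it lay nearer the background there. Calls were fewest without corpus 2 or without antrum 2, under the share of all genes that fell in those fits. The median stayed between -0.58 and -0.33 under all 13 alternatives, but its distance from that of all genes moved. Without forestomach 1 it was -0.58 where the median of all genes was 0.04. Without forestomach 2 it was -0.56 where that of all genes was -0.32.

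Ndufb6, an accessory subunit of the membrane arm, changed most in complex I. Its level was 42.31 and 47.12 CPM in forestomach, 14.7 and 10.01 in corpus, and 17.5 and 11.88 in antrum. The forestomach mean was 3.31-fold the glandular mean, and no glandular library came near it. The log2 difference was -1.68 ± 0.26 (SE), with an adjusted p of 0.000639 by limma with Benjamini-Hochberg adjustment, and it passed under all 13 alternatives.
The 150 bases before its start (GRCm38.p6, chr4:40279422-40279571, minus strand), shown because it is the complex I gene with the largest change, overlap 0 annotated exons and hold 1 match to a motif searched, GGGCGG on the other strand, in capitals.
Ndufb6: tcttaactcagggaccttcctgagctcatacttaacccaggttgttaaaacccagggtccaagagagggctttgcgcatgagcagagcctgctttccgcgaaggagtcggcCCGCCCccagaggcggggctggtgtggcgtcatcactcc
The NRF1 letters as searched are not in this window.

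Ndufa11, another accessory subunit of the membrane arm, stood at 38.49 and 46.79 CPM in forestomach, 25.47 and 16.28 in corpus, and 25.61 and 15.48 in antrum. Its log2 difference was -1.04 ± 0.29 (SE; adjusted p = 0.015, limma with Benjamini-Hochberg adjustment). In both glandular regions library 1 was more than 1.5-fold above library 2, yet all 4 lay below forestomach.

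The 7 core subunits form the electron path from NADH to the ubiquinone pocket, and 1 of them passed. Ndufs7, which holds the last cluster before ubiquinone, stood at 50.98 and 48.9 CPM in forestomach, 33.12 and 20.46 in corpus, and 32.76 and 20.58 in antrum. Its log2 difference was -0.91 ± 0.28 (SE; adjusted p = 0.0249, limma with Benjamini-Hochberg adjustment), and the groups did not overlap. The core genes named next had log2 differences between -0.55 and -0.40, none of which passed with all libraries.

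Ndufv1, the subunit that binds NADH and flavin, was at 94.19 and 88.78 CPM in forestomach, 79.32 and 59.55 in corpus, and 79.35 and 61.21 in antrum. Its partner Ndufv2 was at 74.69 and 76.22, 53.91 and 46.44, and 57.28 and 59.13 CPM in the same order. In both genes every glandular library lay below both forestomach libraries. Ndufs1, the large iron-sulphur subunit, was at 89.26 and 49.05 CPM in forestomach, 45.6 and 41.09 in corpus, and 50.11 and 56.57 in antrum, and its groups overlapped through forestomach 2. Its log2 difference was -0.03 without forestomach 1 and -0.88 without forestomach 2, where it passed (adjusted p = 0.00963, against 0.287 to 0.89 without any 1 of the other libraries, limma with Benjamini-Hochberg adjustment).

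Ndufs3, of the matrix arm, was at 29.6 and 31.51 CPM in forestomach, 19.42 and 19.7 in corpus, and 22.46 and 20.92 in antrum. For Ndufs3 too the groups did not overlap, and it passed without either forestomach library (-0.59 and -0.50). Ndufs8, which carries a pair of iron-sulphur clusters, was at 27.51 and 39.44, 24.28 and 24.22, and 28.09 and 21.53 CPM, and its groups overlapped through forestomach 1 and antrum 1. Its log2 difference was -0.67 without forestomach 1, where it passed, and -0.17 without forestomach 2, where it did not.

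Among the 29 accessory subunits 13 fell (44.8%, against 26.7% of all genes), and the median log2 difference was -0.56. Without corpus 2 or without antrum 2 all calls in complex I but 1 (Ndufb6) were lost. Beside Ndufb6 and Ndufa11 these were Ndufs6, Ndufc2, Ndufa8, Ndufa2, Ndufa12, Ndufb10, Ndufc1, Ndufs5, Ndufa10, Ndufa13 and Ndufb3, with log2 differences from -0.87 (Ndufs6) to -0.65 (Ndufb3). Ndufs5 kept its call under 5 of 14 settings, the fewest of the 23 members called. Not all accessory genes went the same way. Ndufs4, which the NADH-binding arm needs for its assembly, was at 40.98 and 37.21 CPM in forestomach, 39.53 and 42.56 in corpus, and 45.36 and 45.63 in antrum. Ndufa6 was at 23.95 and 20.66, 34.05 and 27.17, and 24.76 and 23.24 CPM, with overlapping groups in both genes. The log2 differences, 0.14 ± 0.21 (SE) and 0.27 ± 0.22 (SE), did not pass, though Ndufa6 did so after either rescaling.

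**Figure D2:**
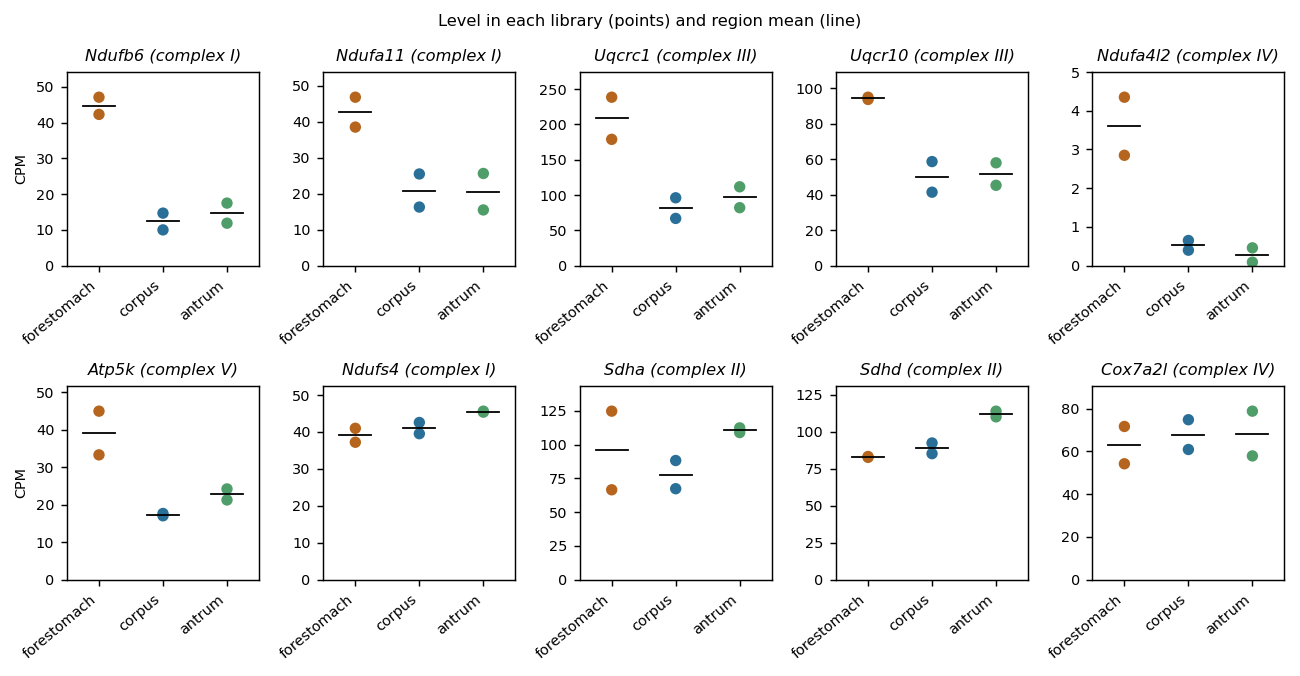
CPM of 10 members in each library (points) with the mean of each region (line), on axes that start at 0. In Ndufb6, Ndufa11, Uqcrc1, Uqcr10, Ndufa4l2 and Atp5k both forestomach points lie above all glandular points, whereas in Ndufs4, Sdha and Cox7a2l the groups overlap and in Sdhd the glandular points are higher, a difference that passed only after rescaling to the listed sum.

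Complex II, which is at once the succinate dehydrogenase of the citric acid cycle, showed no member that passed in either direction by limma, with an unadjusted p under 0.05 in 1 of the 4 (Sdhb). With rescaling to the listed sum Sdhd rose, and with the library number as a block 1 member fell. Summed levels were 352 and 276 CPM in forestomach, 303 and 245 in corpus, and 348 and 320 in antrum, which overlap. As a share of the listed CPM complex II stood 12% higher in glandular libraries, without overlap. Its median log2 difference was -0.06, but 0.14 and 0.15 after the rescalings, 0.13 without forestomach 1, 0.04 without corpus 2 and -0.35 without forestomach 2.

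Sdha, the flavoprotein, stood at 124.82 and 66.56 CPM in forestomach, 88.25 and 67.36 in corpus, and 112.45 and 108.95 in antrum. The highest and the lowest level were both in forestomach, so the log2 difference of 0.02 ± 0.30 (SE) is set by which of its libraries is used, and was -0.43 without forestomach 2. Sdhb, the iron-sulphur subunit, stood at 65.41 and 60.29, 47.56 and 36.3, and 47.86 and 40.23 CPM. Its groups did not overlap, and the log2 difference of -0.55 ± 0.23 (SE) had an adjusted p of 0.0817 by limma with Benjamini-Hochberg adjustment.

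Of the membrane anchors, Sdhd was at 82.76 and 83.33 CPM in forestomach, 92.48 and 85.26 in corpus, and 114.02 and 110.17 in antrum. All glandular libraries lay above both forestomach ones, and antrum above corpus. The log2 difference of 0.26 ± 0.22 (SE) did not pass. Sdhc was at 79.31 and 65.89, 74.39 and 56.01, and 73.44 and 60.79 CPM, with overlap.

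**Figure D3:**
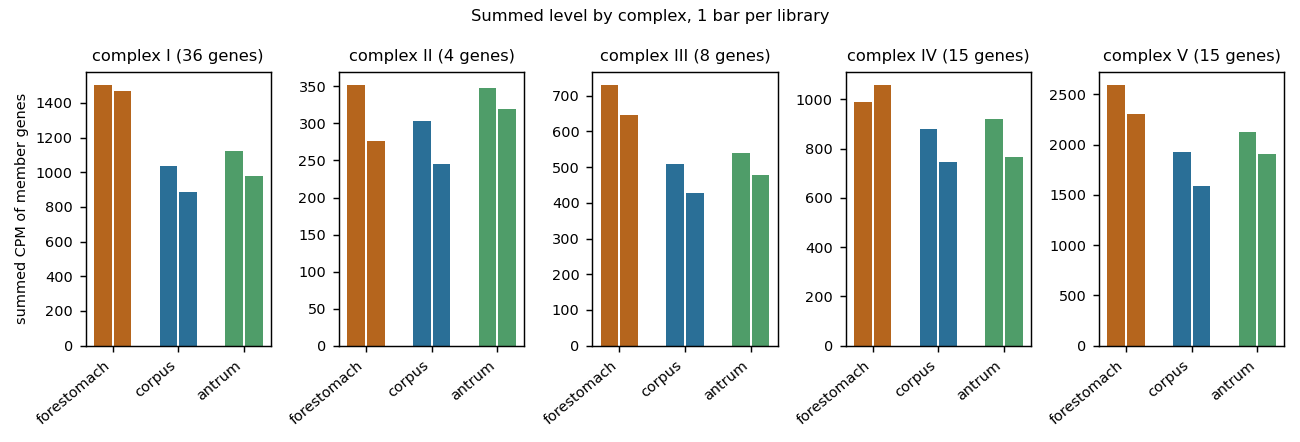
Summed CPM of the members of each complex, 1 bar per library (library 1 left, library 2 right), on axes that start at 0. Both forestomach bars exceed all glandular bars in complexes I, III, IV and V as deposited, and in complex II they do not; as a share of the listed CPM complex IV overlaps too and complex II is higher in glandular libraries.

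In complex III, 3 of 8 members fell (37.5%, against 26.7% of all genes) and the median log2 difference was -0.17, which turned to 0.02 and 0.03 after the rescalings. Without corpus 2 or without antrum 2, 1 of the 3 kept its call (Uqcrc1). The sum was 730 and 646 CPM in forestomach, 510 and 428 in corpus, and 540 and 479 in antrum. Uqcrc1, a core protein of the matrix side, stood at 238.54 and 178.87, 96.12 and 66.9, and 111.7 and 82.13 CPM in the same order. Its forestomach mean was 2.34-fold the glandular one, and every glandular library lay well below both forestomach libraries. The log2 difference was -1.23 ± 0.27 (SE; adjusted p = 0.00531, limma with Benjamini-Hochberg adjustment), and it passed under all 13 alternatives.

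The small subunits Uqcr10 and Uqcr11 fell as well. Uqcr10 was at 93.71 and 94.97 CPM in forestomach, 58.68 and 41.42 in corpus, and 57.98 and 45.31 in antrum, a log2 difference of -0.89 ± 0.25 (SE; adjusted p = 0.015, limma with Benjamini-Hochberg adjustment). Uqcr11 was at 57.51 and 63.86, 39.12 and 28.52, and 46.31 and 33.37 CPM, a log2 difference of -0.73 ± 0.25 (SE). Forestomach stood apart in both genes, while the call for Uqcr11 (adjusted p = 0.0386, limma with Benjamini-Hochberg adjustment) was kept under 6 of 14 settings.

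Uqcrfs1, the Rieske iron-sulphur protein that takes the electron from ubiquinol, overlapped between the groups, at 91.3 and 71.59, 80.65 and 59.72, and 79.82 and 66.89 CPM. Its log2 difference of -0.18 ± 0.25 (SE) changed sign with rescaling (0.02 and 0.03). The second core protein Uqcrc2 and the small subunits Uqcrh and Uqcrq overlapped too, with log2 differences from -0.17 to -0.04. Uqcrb was higher in all glandular libraries (35.8 to 53.35 CPM against 35.01 and 29.68 in forestomach), with a log2 difference of 0.34 ± 0.25 (SE) that did not pass. The core pair of complex III thus had separate values: Uqcrc1 fell, and Uqcrc2 had a log2 difference of -0.08 ± 0.24 (SE).

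Complex IV had 3 of 13 tested members that fell (23.1%, against 26.7% of all genes), with a median log2 difference of -0.33 that was -0.13 after the rescalings. The count was 1 (Ndufa4l2) after either rescaling and without any 1 of the 4 glandular libraries. Complex IV summed to 988 and 1059 CPM in forestomach, 882 and 745 in corpus, and 919 and 767 in antrum. As a share of the listed CPM it overlapped between the groups (-7.35%). Ndufa4l2, a paralog of Ndufa4 known to be induced in low oxygen, fell most of all members. It was at 4.35 and 2.85 CPM in forestomach, 0.65 and 0.4 in corpus, and 0.46 and 0.09 in antrum, where antrum 2 is close to the level of 3 reads. The log2 difference was -1.71 ± 0.22 (SE; adjusted p = 0.000181, limma with Benjamini-Hochberg adjustment), and it passed under all 13 alternatives. It passed the filter on low values through forestomach alone, so it could hardly have come out otherwise.

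Ndufa4, the subunit named for complex I and now placed in complex IV, stood at 85.52 and 107.78 CPM in forestomach, 58.27 and 53.05 in corpus, and 68.77 and 65.27 in antrum. Cox6c, a small membrane subunit, stood at 63 and 69.78, 36.81 and 40.25, and 43.99 and 50.45 CPM. Both fell without overlap, by 0.65 and 0.63 on the log2 scale, with adjusted p of 0.0427 and 0.0413 by limma with Benjamini-Hochberg adjustment. Each kept its call under 8 of 14 settings.

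Tissue isoforms of complex IV could be compared only where they had a row. Cox4i1, the broadly used form of the largest nuclear subunit, was at 223.34 and 239.51 CPM in forestomach, 215.13 and 171.84 in corpus, and 204.68 and 149.91 in antrum. Its log2 difference of -0.33 ± 0.26 (SE) did not pass, although the groups did not overlap. Cox6a1, the non-muscle form, was at 75.33 and 83.63, 79.81 and 66.04, and 90.3 and 65.99 CPM. Its log2 difference of -0.08 ± 0.24 (SE) turned to 0.12 after either rescaling.

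Cox6b1 was at 117.21 and 135.25 CPM in forestomach, 109.47 and 99.74 in corpus, and 119.52 and 102 in antrum, with overlap. Cox6b2, its testis form, was below the filter at 1.14 and 0.54 CPM in forestomach and 0.03 to 0.09 in glandular libraries, which are levels of a few reads. Cox7a1, the heart and muscle form, was below the filter too, at 0.02 to 0.27 CPM in the 6 libraries. Cox4i2, Cox6a2, Cox7b2, Cox8b and Cox8c had no row under these symbols, so their levels are not known here.

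Cox7a2, the broadly used form, was at 67.56 and 72.63 CPM in forestomach, 53.63 and 57.77 in corpus, and 52.92 and 57.36 in antrum. Cox7a2l, which helps join complexes into supercomplexes, was at 71.72 and 54.25, 74.88 and 60.94, and 78.89 and 57.93 CPM. The groups were apart for Cox7a2 and overlapped for Cox7a2l, with log2 differences of -0.33 ± 0.22 (SE) and 0.11 ± 0.25 (SE), neither of which passed, and that of Cox7a2l was -0.08 without forestomach 2. Cox7b was at 65.3 and 81.89 CPM in forestomach, 52.58 and 63.87 in corpus, and 50.08 and 58.06 in antrum. Cox8a was at 91.46 and 91.85, 94.49 and 51.89, and 91.18 and 62.47 CPM, close to forestomach in library 1 of both glandular regions and far below it in library 2. The remaining members Cox5a, Cox5b and Cox7c did not pass, with log2 differences from -0.52 to 0.14.

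In the ATP synthase all 15 genes had a log2 difference at or below 0 as deposited, with a median of -0.29 that was -0.09 and -0.08 after the rescalings, and 1 gene fell (6.67%, against 26.7% of all genes). The sum was 2593 and 2309 CPM in forestomach, 1925 and 1588 in corpus, and 2130 and 1911 in antrum, without overlap. Atp5k, which encodes the small e subunit at the dimer interface, stood at 33.26 and 44.91, 17.63 and 17.02, and 21.24 and 24.18 CPM in the same order. Every glandular library lay below forestomach, and antrum lay above corpus. The log2 difference was -0.93 ± 0.23 (SE; adjusted p = 0.00889, limma with Benjamini-Hochberg adjustment), and it passed under all 13 alternatives.

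The catalytic head F1 held 5 genes, with a median log2 difference of -0.27 and 0 that passed by limma, also at an unadjusted p under 0.05. Atp5a1, the alpha subunit, was at 771.1 and 603.5 CPM in forestomach, 546.62 and 449.41 in corpus, and 600.8 and 552.36 in antrum. Atp5b, the catalytic beta subunit, was at 998.04 and 812.82, 654.4 and 508.73, and 768.28 and 667.86 CPM. In both, forestomach lay above every glandular library, by a narrow margin in Atp5a1, and the log2 differences of -0.35 ± 0.27 (SE) and -0.49 ± 0.28 (SE) did not pass.

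The rotor ring is made of 1 protein encoded by 3 genes that differ in their import sequence. Atp5g1 was at 53.9 and 58.66 CPM in forestomach, 45.09 and 30.64 in corpus, and 45.67 and 28.27 in antrum. Atp5g2 was at 14.4 and 12.53, 12.59 and 5.69, and 11.56 and 5.65 CPM, and Atp5g3 at 106.66 and 121.28, 97.64 and 78.4, and 102.56 and 101.51 CPM. Atp5g1 and Atp5g3 did not overlap between the groups and Atp5g2 did, through corpus 1, and none passed (log2 differences from -0.63 to -0.26). In Atp5g1 and Atp5g2 library 2 was far below library 1 in both glandular regions. The stalk and membrane part without Atp5k had log2 differences from -0.39 (Atp5l) to -0.00 (Atp5j), none of which passed.

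Among the 4 genes that are not subunits, the complex II assembly factors Sdhaf1 and Sdhaf2 fell, by 0.67 and 0.59 on the log2 scale. Their adjusted p were 0.0237 and 0.0458 by limma with Benjamini-Hochberg adjustment. Sdhaf1 stood at 3.82 and 4.19 CPM in forestomach, 2.17 and 1.49 in corpus, and 2.79 and 2.24 in antrum, and Sdhaf2 at 21.43 and 23.29, 13.94 and 13.41, and 16.39 and 14.26 CPM. Neither overlapped between the groups. Atp5sl had the highest log2 difference of all members, 0.56 ± 0.23 (SE), which did not pass (adjusted p = 0.0713, limma with Benjamini-Hochberg adjustment), at 4.32 and 5.95 CPM in forestomach and 6.9 to 9.45 in glandular libraries, and did pass after either rescaling and without forestomach 2.

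Genes around the chain gave a background for these values. Their counts are given for the main fit alone, so how they depend on scaling or on single libraries is not shown. The mitochondrial ribosome, which translates the subunits encoded in mitochondrial DNA, had 39 of 75 tested genes that fell (52%, against 26.7% of all genes). None rose, and the median log2 difference was -0.68. As a share of the listed CPM its genes made up 0.367% and 0.494% in forestomach and 0.303% to 0.309% in glandular libraries. Mrpl33 stood at 66.13 and 74.93 CPM in forestomach, 23.76 and 30.34 in corpus, and 26.69 and 30.81 in antrum (log2 difference -1.31 ± 0.23, SE). Mrps27 stood at 30.98 and 28.69, 11.75 and 11.71, and 12.73 and 13.9 CPM (-1.19 ± 0.21, SE). Forestomach stood apart in both, which passed with adjusted p of 0.00134 and 0.0015 by limma with Benjamini-Hochberg adjustment.

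Assembly factors of the complexes had 7 of 27 tested genes that fell (25.9%, at the background of 26.7%) and 0 that rose, with a median of -0.47. Cox18, an insertase for a complex IV subunit, was at 22.97 and 15.16 CPM in forestomach, 8.3 and 5.73 in corpus, and 8.91 and 5.61 in antrum (-1.30 ± 0.28, SE). Tmem70, which helps to assemble the ATP synthase, was at 32.44 and 29.08, 14.32 and 10.07, and 14.53 and 13.43 CPM (-1.18 ± 0.23, SE). Both fell without overlap. In the citric acid cycle 1 of 16 genes fell (6.25%, against 26.7% of all genes), Mdh2 (malate dehydrogenase). None rose (21.1% of all genes), and the median was -0.12. Mdh2 was at 167.5 and 143.85, 79.89 and 54.52, and 94.97 and 72.56 CPM.

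A list of 12 tested genes, mostly carriers and exchangers, had 2 that fell (16.7%, against 26.7% of all genes) and 1 that rose (21.1% of all genes). It also held Cyc1, Usmg5 and 2010107E04Rik, subunits of complex III and the ATP synthase that the symbol prefixes leave out. Their log2 differences of 0.05, -0.39 and -0.10 did not pass. Slc25a4, an ADP and ATP exchanger of the inner membrane, was at 157.48 and 155.14 CPM in forestomach, 81.39 and 54.18 in corpus, and 99.9 and 79.34 in antrum (-1.01 ± 0.26, SE), and Atpif1, the inhibitor of the ATP synthase, fell as well. Ucp2, an uncoupling protein family member, rose from 76.58 and 78.48 CPM to 148.8 and 133.18 in corpus and 212.3 and 171.81 in antrum (1.07 ± 0.23, SE).

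Of the 19 regulators of mitochondrial gene expression, 2 rose and 1 fell (5.26%), with a median of -0.02. Of all genes 21.1% rose and 26.7% fell. Ppargc1a, a coactivator known to raise respiratory chain genes, was at 0.64 and 0.05 CPM in forestomach, 33.45 and 39.43 in corpus, and 24.99 and 22.71 in antrum. Both forestomach libraries were under 1 CPM, so it passed the filter on low values through the glandular libraries alone and could hardly have come out otherwise. It rose with a log2 difference of 4.54 ± 0.25 (SE; adjusted p = 8.94e-07, limma with Benjamini-Hochberg adjustment). Hif1a, the oxygen-sensing factor, was at 508.66 and 180.26, 90.64 and 66.85, and 66.21 and 48.76 CPM (-2.17 ± 0.40, SE), and its forestomach libraries were far apart. Esrrg, a receptor that works with Ppargc1a, was at 0.03 and 0 CPM in forestomach, 1.52 and 3.02 in corpus, and 0 in both antrum libraries. It passed the filter through corpus alone, so its calls, a rise in glandular against forestomach and a fall in antrum against corpus, were close to set by the filter. No other gene of these lists passed between antrum and corpus. Of 13 subunits encoded in mitochondrial DNA, 7 had a row, and all were listed at 0 in every library. Of 46 assembly factors with a row, 27 were above 0 in any library. A row at 0 throughout does not tell a gene without expression from one that was not counted. The levels of these genes are thus not known here.

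**Figure D4:**
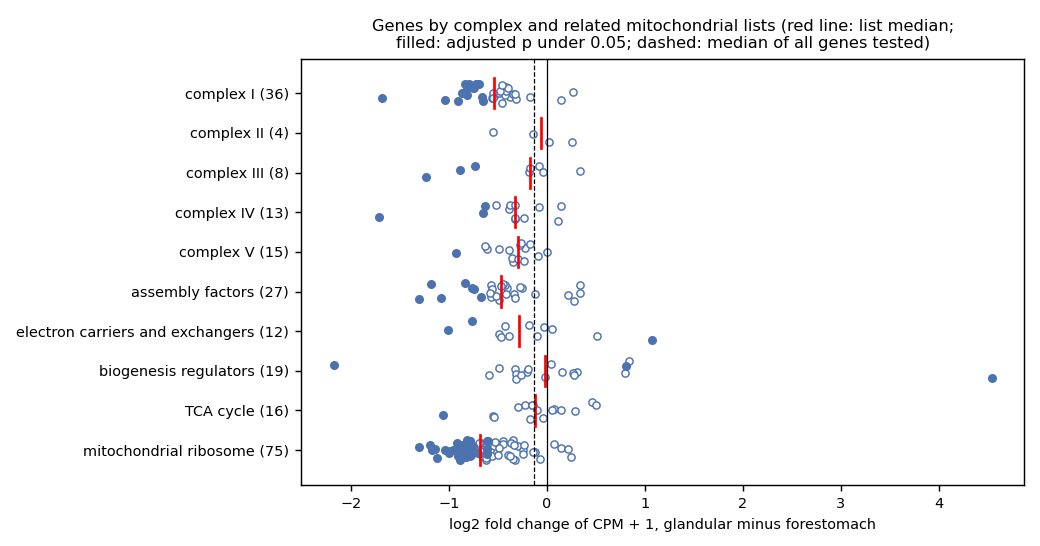
Log2 fold change of CPM + 1 in glandular against forestomach for each tested gene (points; filled where the adjusted p was under 0.05) of the complexes and of related mitochondrial lists, with the number of genes in brackets, the list's median as a red line and the median of all genes (-0.13) dashed. Complex I (-0.54) and the mitochondrial ribosome (-0.68) have medians farthest below that of all genes, complex II (-0.06, but 0.14 with rescaling by median ratios) lies near it, and Ppargc1a is the point at 4.54.

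The libraries of a region differed in a way that corpus and antrum shared, so the 4 glandular libraries may not be independent, as the fit takes them to be. Of the 80 members, 57 (71.2%) were higher in library 1 than in library 2 in both regions, against 54.4% of all genes. Across the members the difference between library 1 and 2 in corpus correlated with that in antrum at r = 0.71 (0.61 across 11891 genes), which describes genes of the same libraries and has no replicates. The same difference correlated with the GC content of the transcripts (GENCODE M21, 79 members) at r = 0.45 in corpus and 0.59 in antrum, and at r = -0.12 in forestomach. GC content and the difference between glandular and forestomach had r = -0.33 across the members and -0.01 across 10314 genes. Its part in the result was not tested.

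Between the forestomach libraries 3 members were more than 1.5-fold apart on CPM + 1 (3.75%, namely Ndufb8, Ndufs1 and Sdha), against 34.3% of all genes. In corpus 7.5% of members and 7.57% of all genes, and in antrum 8.75% and 12.9%, were that far apart. Centred on each gene's mean, the members' median log2 level was 0.30 and 0.28 in forestomach while that of all genes was 0.27 and -0.09, so the members stood near all genes in forestomach 1 and above them in forestomach 2. In the glandular libraries the members' medians were -0.31 to -0.00 and those of all genes -0.22 to 0.13.

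**Figure D5:**
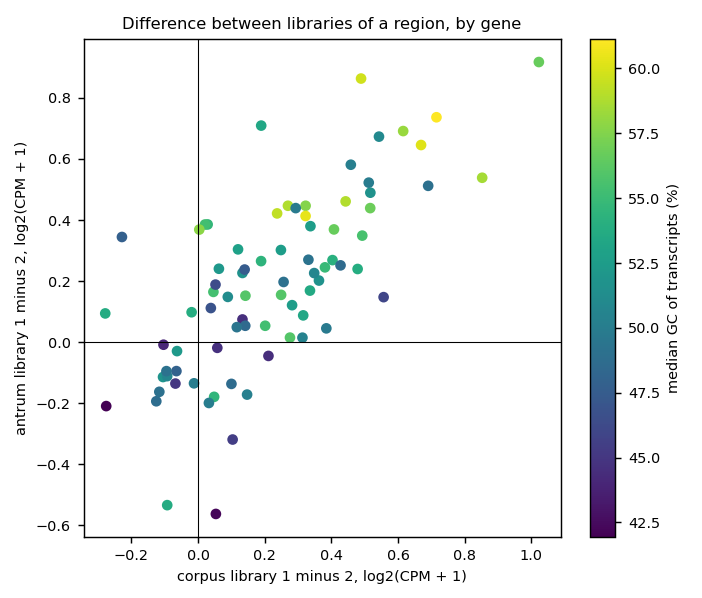
Log2(CPM + 1) of library 1 minus library 2 for the tested members with a transcript GC value, corpus on the x axis and antrum on the y axis, coloured by the median GC content of the gene's transcripts in percent. Most points lie in the upper right, where library 1 is higher in both regions; among all points the difference correlated with GC content at r = 0.45 in corpus and 0.59 in antrum, with points of lower GC content far out as well.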

How the data were processed

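Per the labels' protocols, total RNA was sequenced after removal of ribosomal RNA. All values are CPM deposited by the authors in 1 table, with 2 decimals. The submitters' processing notes name STAR, HTSeq, DESeq2, edgeR and mm9 with no version or role. Annotation and strand setting: not given in the sources used here. Reads of overlapping genes and of processed pseudogenes, which many of these genes have, may thus be shared or lost. From the 15450 rows, 19 with a date in place of a symbol were dropped. Columns name a region and a number that the labels do not tie to a sample, and pylorus in a column name stands for the antrum group. Listed rows held 33.2% to 48.4% of the CPM scale. Depths were read from the steps of low values (100% of values under 200 CPM lie within 0.0051 CPM of a step, and for steps set wrong on purpose 40% to 61.3% do). Since 2 decimals are few for steps this small, single read counts were not recovered and depths are estimates.

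The 11891 genes that reached 1 CPM in 2 or more libraries were fitted as log2(CPM + 1) with limma 3.58.1 in R 4.3.3, with 3 group means, an intensity trend, 3 residual and 6.1 prior degrees of freedom, two-sided tests and Benjamini-Hochberg adjustment at 0.05. The script was run on simulated libraries with independent noise of equal size. These lacked the difference between library 1 and 2 that corpus and antrum shared, so they do not bear on the calls made here. Named were core catalytic subunits, isoform groups and, per complex, up to 3 members that passed with the largest change each way, with up to 2 rises and 2 falls per related list; other genes were named after their values were seen. The values of 1 gene are not reported here. Members and lists were chosen with earlier results of these data known. Motifs and figures were made in Python 3.11.15. Alternatives changed the pseudocount (0.1 and 0.5), the filter, the scaling, the trend, the block and the libraries used.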

Additional observations from a re-analysis of the deposited data

How the results depend on the processing

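With glandular against forestomach, 23 members fell and 0 rose as deposited; rescaling by median ratios gave 14 and 2, rescaling to the listed sum 16 and 3, and leaving out 1 library 4 to 22 and 0 to 1 (4 without corpus 2 or antrum 2, 12 without corpus 1, 15 without antrum 1). In corpus, 19 fell and 0 rose; the rescalings gave 9 and 1, and 12 and 2, and leaving out 1 library gave 2 to 23 that fell. In antrum, 8 fell and 0 rose; rescaling to the listed sum gave 1 that rose, and leaving out 1 library 2 to 8 and 0 to 1. Antrum against corpus gave 0 each way under all 13 alternatives. Of 403 comparisons of 31 named members with an alternative, 356 stayed on their side of the threshold (most of them genes not called to begin with, since 10 of the 31 were called), 29 lost a call, 10 gained one and 8 changed sign: Cox6a1 (0.12 after either rescaling, and -0.19 to 0.03 leaving out 1 library, 0.03 without antrum 2), Uqcrfs1 (0.02 and 0.03 after the rescalings), Cox7a2l (-0.08 without forestomach 2 to 0.31 without forestomach 1) and Sdha (-0.43 without forestomach 2, -0.08 without corpus 1 and 0.47 without forestomach 1). Of the 23 calls 4 were kept throughout, those of Atp5k, Ndufa4l2, Ndufb6 and Uqcrc1. Ndufa4l2 had passed the filter on low values through forestomach alone, so its call was close to set by the filter. Where 1 library of a region is left out, the other is assumed to vary like the other groups. In antrum against forestomach, either rescaling gave 11 members that fell, more than the 8 as deposited. The cause of these moves was not tested. With the library number as a block, 29 members fell in glandular, 28 in corpus and 14 in antrum, and 0 rose. That block sets the same shift for every region. Differences between library 1 and 2 over all genes correlated at 0.61 between corpus and antrum but at -0.06 and -0.11 with forestomach. The numbers were thus not taken to pair the libraries across all regions. The main fit took the glandular libraries as independent, though corpus and antrum shared this difference. Its SEs may thus be too small for glandular against forestomach and too large for antrum against corpus. TMM scaling and tests on recovered reads (edgeR and DESeq2) were not run. With 2 libraries a region, small differences between neighbouring levels are beyond these data.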
